A study of Mus musculus with 20 samples.

Results

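The kidneys described here came from the 5 EIC + S120 mice and the 5 EIC mice, 10 of the 20 mRNA sequencing libraries of the series, taken by their labels alone. Nude mice were injected intravenously with engineered immune complexes (EIC), which are human galactose-deficient IgA1 bound by a recombinant human IgG autoantibody, to model the glomerular deposits of IgA nephropathy. EIC mice 65 to 69 received EIC and oral vehicle, and EIC + S120 mice 77 to 81 received the same EIC and sparsentan by gavage at 120 mg/kg. Both groups were female NCr nude (sp/sp homozygous) mice, 7 weeks old, given 6 EIC injections and 11 daily gavages, with kidneys taken on day 12, and each library was 1 mouse. A lower dose, EIC + S60 at 60 mg/kg, and Control mice without EIC are used only where named. Nude mice have no thymus and almost no mature T cells, the IgA1 was human, and whole kidney was sequenced, so that fewer cells of a type and less RNA per cell cannot be told apart.

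Sparsentan is a single molecule that blocks the endothelin type A receptor and the angiotensin II type 1 receptor. Renin is released and transcribed by juxtaglomerular cells of the afferent arteriole, and angiotensin II acting on type 1 receptors normally holds its transcription down, which makes renin mRNA a familiar readout of receptor blockade. Immune complexes in the glomerulus can engage Fc receptors and complement and draw in macrophages, whose products and the interferon-responsive genes around them are read in whole-kidney RNA.

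Library totals ran from 15915600 to 19635500 counts (rounded to 6 digits) over the 15780 genes in the tables. EIC 65 had a count above 0 in every listed gene, whereas 409 to 622 genes were at 0 in the other 9 libraries. A gene without reads in EIC 65 therefore has no row in these tables and was not analysed here. The first principal component of log2 CPM (counts scaled to library size as CPM) held 33.8% of the variance and set 4 EIC mice (−26.1 to −5.18) apart from 4 EIC + S120 mice (8.23 to 20.6). EIC 66, at 31.4, and EIC + S120 77, at −29.8, each lay on the side of the other group. Markers of podocyte, tubule, endothelium and mesangium were present in both groups, T-cell Cd4 stayed at or below 1.33 CPM, and adrenal Cyp11b1 stayed at or below 0.144 CPM. Mitochondrially encoded genes took 9.32% to 13.7% of the counts in EIC mice and 10.2% to 12.5% in EIC + S120 mice.

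A minimum of 10 counts in 5 or more of these libraries left 13485 genes. Between EIC + S120 and EIC 2 of them were differentially expressed (DE), which means a Benjamini-Hochberg adjusted p under 0.05 in edgeR's quasi-likelihood test. Both, Ren1 and Map3k5, rose with sparsentan, which is 0.0148% of genes in either direction and 0.0148% for higher genes, and none (0%) fell. At an unadjusted p under 0.05 there were 488 genes with a higher level (3.62%) and 505 with a lower one (3.74%). These 2 shares are the background for every count by list given below, and small counts near them are no result about a list. In 80 genes (0.593%) every EIC + S120 mouse was above every EIC mouse, and in 82 genes (0.608%) every one was below. DESeq2 called 50 genes on the same counts, 29 higher (0.215%) and 21 lower (0.156%), and limma-voom called 5. The median log2 fold change (LFC) of all genes tested was −0.003 with an SD of 0.227. Values of single mice below follow the order of the mouse numbers, EIC 65 to 69 and then EIC + S120 77 to 81, in CPM scaled over these 10 libraries.

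Renin mRNA separated the groups more than any other transcript by its p. Ren1 (chr1:133350510-133360325, plus strand, GRCm38) stood at 135, 165, 200, 228 and 211 CPM in the EIC mice. In the EIC + S120 mice it stood at 587, 846, 739, 453 and 801 CPM. The lowest treated kidney held about as much again as the highest EIC kidney, and no values overlapped. The LFC was 1.87 (SE 0.189, n = 5 mice per group, edgeR adjusted p = 0.00795), on means of 188 ± 37.4 and 685 ± 163 CPM (SD). Ren1 kept its call in 8 of the 10 fits that left out 1 mouse, with adjusted p = 0.0544 without EIC 67 and 0.0528 without EIC + S120 81 by the same edgeR test, while the LFC stayed between 1.77 and 1.98. Some mouse strains carry a nearly identical extra renin gene whose reads would be counted with Ren1.

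The RefSeq promoter of Ren1 (chr1:133350424-133350723, plus strand, GRCm38.p6) is shown because renin led the comparison. It runs from 250 bases before the transcription start of that table to 50 bases from it. This start, position 133350674, lies inside the gene span given above and not at its first base. In the printed window capitals mark the TATAAA box, which spans positions −29 to −24 with the first transcribed base at 0. TATAAA was searched on both strands and is found in 13.6% of 32851 promoters of the same length.
Ren1: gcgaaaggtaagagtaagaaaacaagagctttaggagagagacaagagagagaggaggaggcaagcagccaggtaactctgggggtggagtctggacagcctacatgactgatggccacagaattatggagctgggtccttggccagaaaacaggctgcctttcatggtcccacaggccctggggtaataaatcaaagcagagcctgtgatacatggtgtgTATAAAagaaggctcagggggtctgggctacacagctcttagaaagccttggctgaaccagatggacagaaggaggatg

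No other gene of the renin-angiotensin system passed the test. Of 11 members tested 3 had an unadjusted p under 0.05, all 3 higher, and 1 (Ren1) was DE, with a median LFC of 0.10 against −0.003 over all genes. Akr1b7, an aldo-keto reductase co-expressed with renin in juxtaglomerular cells, was at 2.17, 1.93, 2.68, 3.06 and 2.54 CPM in EIC mice and at 3.58, 4.56, 4.001, 3.14 and 4.95 CPM in EIC + S120 mice. The 2 ranges touched closely without overlapping, and the LFC of 0.71 (SE 0.174) did not pass after adjustment (edgeR adjusted p = 0.423). Across the 10 libraries Akr1b7 was also the transcript whose log2 CPM was most like that of Ren1 (Pearson r 0.945), with Sec24d also close (0.916), values that contain the group difference itself.

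Prcp, a prolylcarboxypeptidase that can cleave angiotensin II, ranged from 78.7 to 113 CPM in EIC mice and from 105 to 138 CPM in treated mice (LFC 0.42, edgeR adjusted p = 0.334, DESeq2 adjusted p = 0.027). The groups overlapped by the single EIC 66 value of 113 CPM. Agt (angiotensinogen), Ace and Agtr1a, which encodes the angiotensin receptor that sparsentan blocks, had LFCs of −0.22, 0.12 and 0.10, none with an unadjusted p under 0.05.

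Messenger RNA of the endothelin system showed no DE gene among 7 members. Ednra, the receptor blocked by the drug, was at 3.80, 1.99, 3.46, 5.02 and 5.23 CPM in EIC mice and at 6.40, 5.26, 5.97, 4.86 and 5.83 CPM in treated mice. In 4 of the 5 treated mice Ednra exceeded every EIC mouse, and EIC + S120 80 fell inside their range (LFC 0.54, SE 0.223, unadjusted p = 0.0276, edgeR adjusted p = 0.632). Edn1, the endothelin-1 precursor, and Ednrb, the type B receptor, had LFCs of −0.05 and −0.11, and Ece1, which releases the active peptide, had 0.04, each smaller than its SE.

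**Figure D1:**
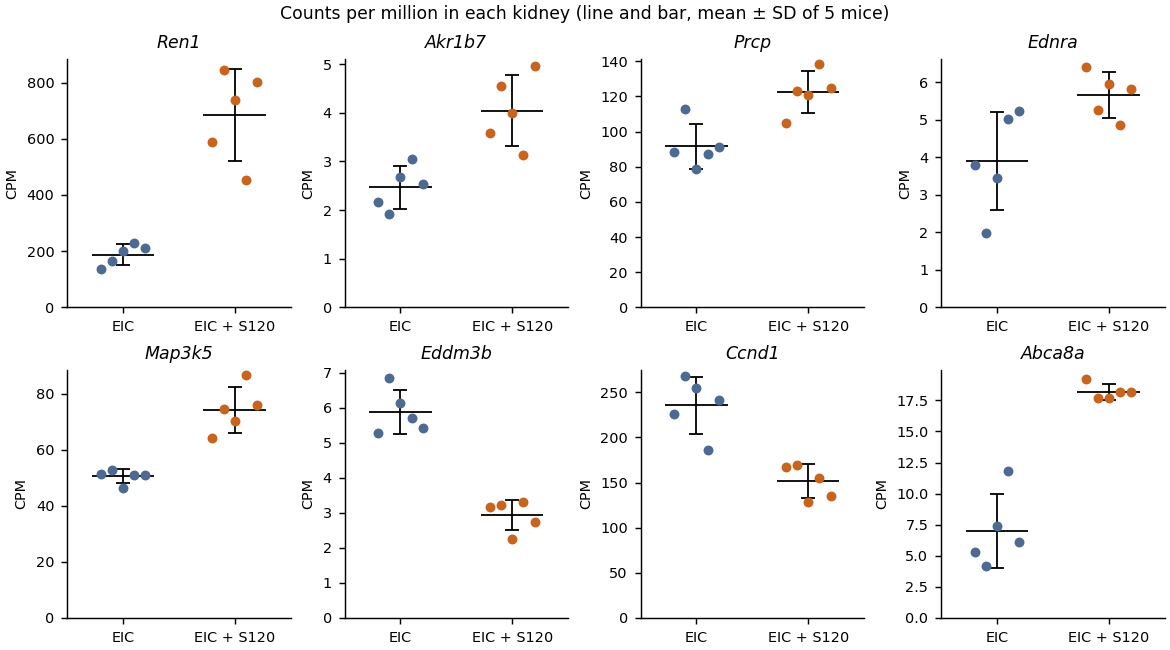
CPM (y axis, from 0) of 8 genes in each kidney, with EIC mice in blue, EIC + S120 mice in orange, and the mean ± SD of 5 mice in black. Ren1 lies between 453 and 846 CPM in treated mice and between 135 and 228 CPM in EIC mice, and of the genes drawn Ren1 and Map3k5 passed the test.

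Map3k5 encodes ASK1, a kinase that relays oxidative and endoplasmic reticulum stress to the JNK and p38 MAP kinases. Map3k5 (chr10:19934472-20142753, plus strand) was at 51.6, 52.9, 46.2, 51.2 and 51.0 CPM in EIC mice and at 64.4, 74.5, 70.4, 86.6 and 76.1 CPM in EIC + S120 mice. EIC mice differed from each other by only a few CPM, and the lowest treated mouse, 77, was above all of them. The LFC was 0.56 (SE 0.0756, edgeR adjusted p = 0.0335), a rise of smaller size than that of Ren1. This call was lost in 8 of the 10 fits that left out 1 mouse, with adjusted p from 0.00342 without EIC + S120 77 to 0.177 without EIC + S120 81, at LFCs of 0.50 to 0.61. Among MAP kinases and their phosphatases, a list without Map3k5, 3 of 22 members were higher and 2 lower at an unadjusted p under 0.05, with a median LFC of 0.03.

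The next 10 genes by p had adjusted p values between 0.0553 and 0.0719 in edgeR's quasi-likelihood test and so did not pass. All 10 separated the groups without overlap and all 10 passed in DESeq2, on the same counts that picked them, which adds no independent support. Several outside the pathways below are described first, and Cry1, Egr1, Dbp and Slc2a5 are taken up with their pathways. Ccnd1, cyclin D1, which drives entry into the cell cycle, was at 226, 268, 255, 187 and 242 CPM in EIC mice and at 168, 170, 129, 156 and 135 CPM in treated mice (LFC −0.64, SE 0.107, edgeR adjusted p = 0.0675). Abca8a, a lipid transporter, was near 18 CPM in every treated mouse (17.7 to 19.2) and between 4.14 and 11.8 CPM in EIC mice (LFC 1.39, SE 0.216). Eddm3b (LFC −0.998) and Blnk, an adaptor of B-cell receptor signalling (LFC −0.63), were lower in every treated mouse.

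Further down the 30 genes of smallest p, 16 in all were higher and 14 lower, and 27 did not overlap between groups. Over all genes 0.593% were higher and 0.608% lower without overlap. Picking by p in the same mice favours such genes, so the 27 are no further evidence. Mtor, the growth-controlling kinase, had 100 to 120 CPM in EIC mice and 134 to 147 CPM in treated mice (LFC 0.33, edgeR adjusted p = 0.133). Other genes with higher levels were A1cf (0.63), Arl5a (0.32), Ypel2 (0.80), Gldc (0.70), Birc6 (0.31) and Ahctf1 (0.29), with LFCs in brackets. Lower levels were found for Gjb2, the connexin 26 gene (−0.49), the metallothionein Mt3 (−1.73), Sp110 (−0.96), the water channel Aqp3 (−0.41), Cited2 (−0.28), Hoxd8 (−0.34), Tmem129 (−0.28) and Tapbpl (−0.38), with edgeR adjusted p between 0.123 and 0.334. Each of these 8 lower genes passed in DESeq2, with adjusted p from 0.000843 for Gjb2 to 0.0462 for Tmem129 and Tapbpl.

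**Figure D2:**
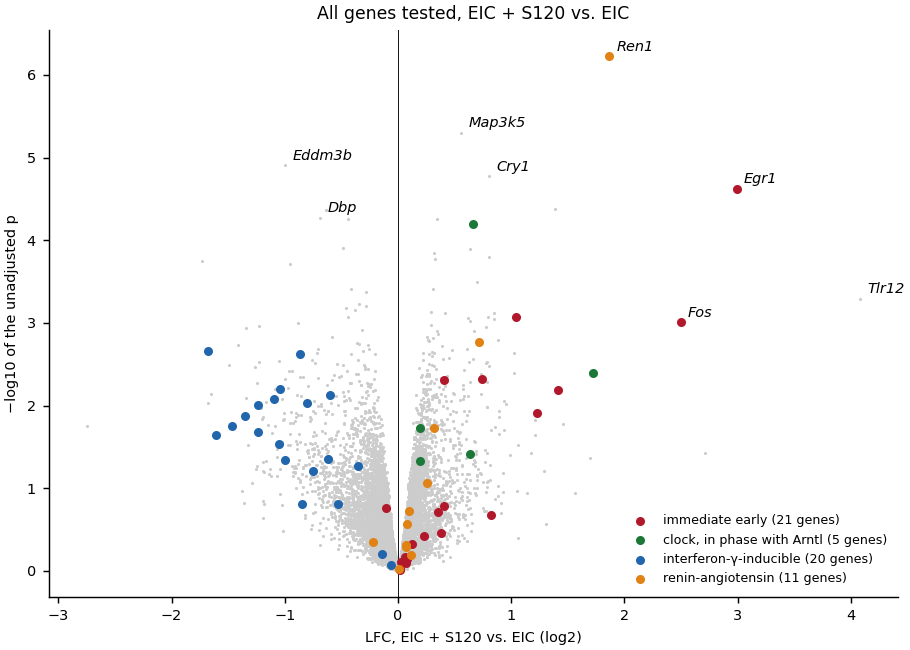
Each point is 1 of 13485 genes, with the LFC of EIC + S120 against EIC on the x axis (log2) and −log10 of the unadjusted edgeR p on the y axis, and members of 4 lists in colour. Ren1 and Map3k5 are the 2 DE genes, immediate early genes lie mostly right of 0 and all 20 interferon-γ-inducible genes left of it.

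The circadian clock runs on a loop in which CLOCK and the Arntl product BMAL1 switch on Per, Cry, Nr1d1 and Dbp through E-boxes, and NR1D1 represses Arntl through RORE elements. Clock transcripts cycle strongly with the time of day in kidney, and the hour at which each mouse was killed was not stated in the sources used here. Treatment and hour of harvest therefore cannot be told apart for this list. Arntl was at 0.626, 0.738, 0.558, 0.577 and 0.777 CPM in EIC mice and at 0.881, 5.67, 1.13, 1.42 and 1.75 CPM in treated mice. Every treated mouse lay above the EIC mice, and EIC + S120 78 lay far above the other treated mice (LFC 1.72, SE 0.393, edgeR adjusted p = 0.49). Nfil3 (0.63), Clock (0.20) and Rora (0.20) also had higher means, and all 5 tested genes that peak near Arntl had an unadjusted p under 0.05 in the higher direction, none of them DE, with a median LFC of 0.63. Without EIC + S120 78 that count was 2.

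Repressor genes of the loop, which were listed together and need not share a peak hour, did not share a direction. Cry1, a repressor of CLOCK and BMAL1, was at 13.4, 10.4, 8.92, 11.01 and 12.3 CPM in EIC mice and at 17.4, 21.3, 17.2, 18.7 and 23.4 CPM in treated mice, with no overlap (LFC 0.80, SE 0.121, edgeR adjusted p = 0.0562). Nr1d1, the REV-ERBα gene, had LFC −0.94 (76.0, 74.6, 107, 107 and 103 CPM in EIC mice, then 80.1, 36.2, 53.7, 42.3 and 31.7 CPM in treated mice). In 4 of the 5 treated mice Nr1d1 was below every EIC mouse, and EIC + S120 77 was within their range. Ciart (−0.88) and Bhlhe41 (−0.73), both repressors within the loop, also had unadjusted p values under 0.05, whereas Per1 (−0.31), Per2 (0.23), Per3 (−0.16) and Cry2 (0.01) had not. Over the 10 genes of this list the count was 1 higher and 3 lower, and the median LFC was −0.08.

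Among clock outputs, Dbp, a transcription factor whose mRNA follows E-box activity, was at 237, 246, 260, 289 and 228 CPM in EIC mice and at 193, 131, 182, 131 and 147 CPM in treated mice (LFC −0.69, SE 0.115, edgeR adjusted p = 0.0675, DESeq2 adjusted p = 4.43e-05). No treated mouse reached the EIC range of Dbp, which had the lowest LFC of its list. Of 16 clock outputs tested 2 were higher and 2 lower at an unadjusted p under 0.05. The list had 8 LFCs above 0 and 8 below, with a median of 0.03. EIC + S120 77 was the treated mouse nearest to the EIC mice in Arntl, Nr1d1 and Dbp. When it was left out, edgeR's quasi-likelihood test called 28 genes, 15 higher and 13 lower, among them Cry1, Dbp and Nr1d1.

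RefSeq promoters (GRCm38.p6) of 4 of these genes are printed to show the elements through which clock proteins act in genes of both directions. Capitals mark the E-box CACGTG, a palindrome, in Cry1, Ciart and Bhlhe41, and a RORE in Arntl, searched on both strands. E-boxes occur in 7.15% of all promoters of this length and the RORE in 0.384%, and of 15 clock genes with a promoter entry 5 held an E-box and 1, Arntl, a RORE. Ciart (chr3:95882179-95882478, minus strand) holds 3 E-boxes, Cry1 (chr10:85185005-85185304, minus strand) and Bhlhe41 (chr6:145865371-145865670, minus strand) 1 each, and the Arntl window is chr7:113207261-113207560, plus strand.
Arntl: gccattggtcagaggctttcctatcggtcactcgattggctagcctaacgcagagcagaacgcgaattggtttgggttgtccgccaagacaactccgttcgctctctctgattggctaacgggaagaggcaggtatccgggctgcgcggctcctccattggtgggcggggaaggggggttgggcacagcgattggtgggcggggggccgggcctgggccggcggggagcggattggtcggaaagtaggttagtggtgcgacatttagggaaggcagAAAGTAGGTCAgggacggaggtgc
Cry1: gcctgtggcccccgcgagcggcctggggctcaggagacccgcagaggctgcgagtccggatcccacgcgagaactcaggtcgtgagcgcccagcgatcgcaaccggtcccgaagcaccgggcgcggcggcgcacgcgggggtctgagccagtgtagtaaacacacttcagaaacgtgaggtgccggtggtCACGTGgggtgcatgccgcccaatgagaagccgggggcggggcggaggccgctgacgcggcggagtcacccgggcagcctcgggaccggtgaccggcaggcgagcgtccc
Ciart: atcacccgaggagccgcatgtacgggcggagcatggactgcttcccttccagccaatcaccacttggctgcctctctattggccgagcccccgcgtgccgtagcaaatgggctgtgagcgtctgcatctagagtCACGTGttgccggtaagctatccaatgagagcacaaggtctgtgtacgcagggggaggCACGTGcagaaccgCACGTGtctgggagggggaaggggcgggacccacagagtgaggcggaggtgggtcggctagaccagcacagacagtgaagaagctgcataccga
Bhlhe41: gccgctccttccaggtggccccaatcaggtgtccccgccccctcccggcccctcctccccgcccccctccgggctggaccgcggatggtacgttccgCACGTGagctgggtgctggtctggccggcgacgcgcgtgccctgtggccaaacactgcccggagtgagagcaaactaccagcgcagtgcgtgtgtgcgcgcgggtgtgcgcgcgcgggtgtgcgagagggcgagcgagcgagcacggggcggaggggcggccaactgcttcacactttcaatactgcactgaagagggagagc
Cry1 and Ciart both carry an E-box within 60 bases of their start, and their LFCs were 0.80 and −0.88. A link between these elements and the levels was not tested.

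Immediate early genes, which are transcribed within minutes of a stimulus and include the AP-1 subunits, had higher means in treated mice in 20 of 21 tested members, of which 7 had an unadjusted p under 0.05 and none was DE. Egr1, a zinc-finger transcription factor, was at 9.77, 7.77, 3.35, 4.61 and 7.88 CPM in EIC mice and at 41.7, 95.9, 38.6, 32.5 and 58.7 CPM in treated mice. The lowest treated mouse was over 3 times as high as the highest EIC mouse, but the LFC of 2.99 (SE 0.363) had an edgeR adjusted p = 0.0644 and passed in DESeq2 (adjusted p = 3.44e-10) and limma-voom. Fos was at 3.996, 1.59, 0.502, 0.980 and 2.18 CPM in EIC mice and at 5.35, 21.8, 7.05, 8.19 and 10.8 CPM in treated mice (LFC 2.499, SE 0.521, edgeR adjusted p = 0.346). Jun ranged from 30.3 to 47.8 CPM in EIC mice and from 48.1 to 112 CPM in treated mice (LFC 1.04, DESeq2 adjusted p = 0.000251, edgeR adjusted p = 0.338).

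Dusp1, a phosphatase that switches off MAP kinases, was at 116, 65.9, 35.2, 131 and 37.8 CPM in EIC mice and at 163, 286, 146, 232 and 205 CPM in treated mice, without overlap (LFC 1.42, SE 0.406). EIC + S120 78 was the highest treated mouse for Egr1, Fos, Jun, Junb and Dusp1. All 7 immediate early genes with an unadjusted p under 0.05 were higher. The median LFC of the list was 0.35, and 0.12 without EIC + S120 78. Handling and the interval between death and freezing also change these transcripts in any tissue, and with no record of either at hand their part was not tested.

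Glucocorticoid-induced genes, read as a list that shares Dusp1 with the one above, had 4 of 19 members higher at an unadjusted p under 0.05, none lower and none DE, with a median LFC of 0.46. Leaving out single mice gave counts from 3 to 11, the latter without EIC 68. Fkbp5, an HSP90 co-chaperone that responds to corticosterone, ranged from 57.7 to 101 CPM in EIC mice and from 95.3 to 210 CPM in treated mice (LFC 0.78). Sgk1, a kinase of sodium transport, ranged from 64.9 to 291 CPM and from 170 to 673 CPM (LFC 1.18), and Pck1, the gluconeogenic enzyme, had LFC 0.48. Each of these ranges overlapped, and the lowest edgeR adjusted p of the 4 members was 0.516.

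**Figure D3:**
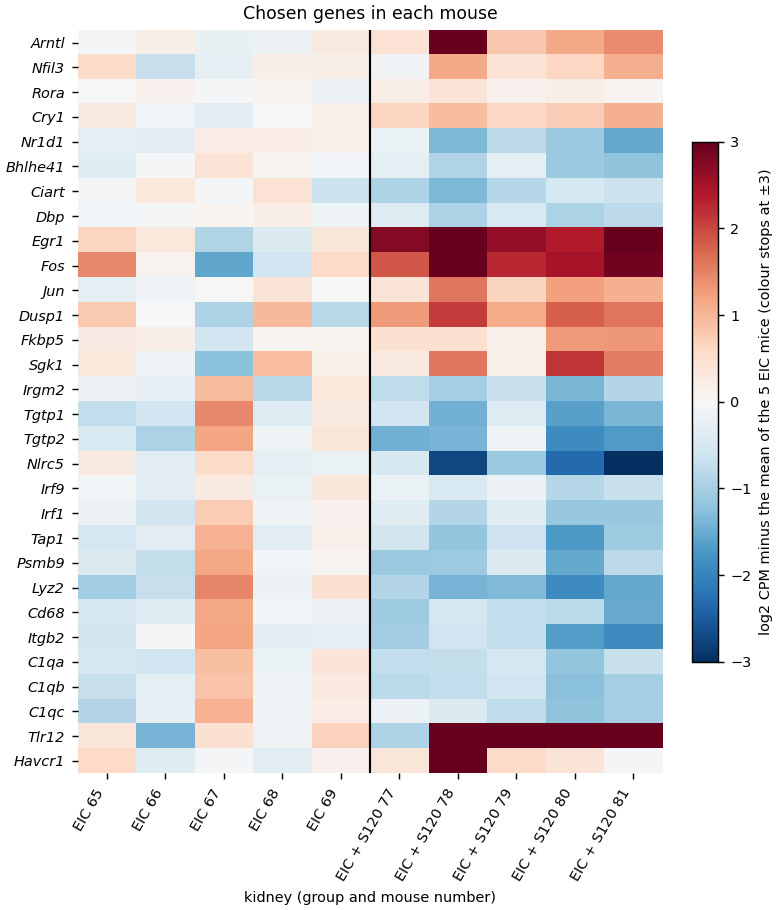
Log2 CPM minus the mean log2 CPM of the 5 EIC mice (colour, cut at 3 in either direction) for 30 genes in rows and the 10 mice in columns, EIC left of the black line. The immune genes are red in EIC 67 and mostly blue in treated mice, Egr1 and Fos are red in all 5 treated mice, and Tlr12 is high in treated mice 78 to 81 but not in 77.

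Interferon-γ-inducible genes include the immunity-related GTPases, which attack vacuoles of intracellular microbes, and the guanylate-binding proteins. All 20 tested had an LFC below 0, with 14 at an unadjusted p under 0.05, a median LFC of −0.93 against −0.003 over all genes, and no DE gene. The EIC group was uneven in these genes. Irgm2, an immunity-related GTPase, was at 19.3, 18.3, 42.0, 12.3 and 27.3 CPM in EIC mice and at 13.0, 10.8, 13.9, 8.44 and 11.8 CPM in treated mice (LFC −1.04, SE 0.29, edgeR adjusted p = 0.512, DESeq2 adjusted p = 0.0337). EIC 67 was the highest of the 10, and EIC 68 fell within the treated range. Without EIC 67 the list's median LFC was −0.62 and 10 members had an unadjusted p under 0.05.

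Tgtp1 and Tgtp2, T-cell-specific GTPases of near-identical sequence whose reads may be split between them uncertainly, repeated that pattern. Tgtp2 was at 4.67, 3.35, 14.6, 5.82 and 8.24 CPM in EIC mice and at 2.35, 2.46, 5.85, 1.72 and 1.98 CPM in treated mice (LFC −1.35, edgeR adjusted p = 0.568). Irf1, a transcription factor that interferon induces, had an LFC of −0.81. Nlrc5, which switches on MHC class I transcription, was low at 1.25 to 2.29 CPM in EIC mice and 0.117 to 1.12 CPM in treated mice, with no overlap (LFC −1.68, SE 0.411, edgeR adjusted p = 0.438).

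Promoters of 3 of these genes (RefSeq, GRCm38.p6) are printed because they carry the same pair of elements at the same spacing. Capitals mark a GAS-type match TTCNNNGAA and an IRF-type match GAAANNGAA, searched on both strands, with 2 bases in lower case between them. They are found in 8.3% and 8.56% of all promoters of this length, and among 12 interferon-γ-inducible genes with an entry 7 held the GAS-type and 10 the IRF-type match. Their windows are chr11:58214727-58215026 (plus strand) for Irgm2, chr11:48992197-48992496 (minus strand) for Tgtp1 and chr11:49064163-49064462 (minus strand) for Tgtp2.
Irgm2: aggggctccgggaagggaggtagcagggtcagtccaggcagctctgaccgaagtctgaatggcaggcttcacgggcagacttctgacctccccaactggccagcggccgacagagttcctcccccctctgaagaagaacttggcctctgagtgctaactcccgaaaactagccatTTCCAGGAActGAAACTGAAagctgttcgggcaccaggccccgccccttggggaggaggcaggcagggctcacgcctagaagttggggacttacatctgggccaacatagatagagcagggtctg
Tgtp1: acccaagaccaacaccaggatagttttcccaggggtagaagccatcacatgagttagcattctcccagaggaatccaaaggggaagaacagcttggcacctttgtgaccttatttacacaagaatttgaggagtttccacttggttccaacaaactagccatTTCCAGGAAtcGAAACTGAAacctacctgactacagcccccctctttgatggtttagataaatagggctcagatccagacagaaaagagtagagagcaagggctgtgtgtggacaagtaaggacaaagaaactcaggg
Tgtp2: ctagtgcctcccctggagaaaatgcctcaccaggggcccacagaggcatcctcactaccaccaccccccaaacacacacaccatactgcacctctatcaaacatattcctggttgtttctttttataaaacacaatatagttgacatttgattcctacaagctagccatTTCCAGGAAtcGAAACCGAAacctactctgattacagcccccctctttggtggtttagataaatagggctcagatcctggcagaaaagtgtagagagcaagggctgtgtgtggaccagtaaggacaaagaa
All 3 genes had lower means in treated mice, with LFCs of −1.04, −1.24 and −1.35. All 20 tested genes of the list had an LFC below 0, so this shared direction says nothing about the elements. Igtp, not printed, carried the same pair, and Ifi47 had neither match. A link between the elements and the lower levels was not tested.

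Type I interferon-stimulated genes, which answer interferon-α and β, had the same direction in most members with less separation. Of 32 tested 28 had an LFC below 0, 4 had an unadjusted p under 0.05, and the median LFC was −0.43. The median was −0.26 without EIC 67, and the count of 4 became 3 without EIC 67 and 11 without EIC 66. Irf9 (LFC −0.47) and Ifi35 (−0.64) had the smallest p values, 0.0116 and 0.0125 before adjustment. In MHC class I presentation and the immunoproteasome 8 of 20 members were lower and none higher by the same threshold, with a median LFC of −0.34, which was −0.15 with 4 members when EIC 67 was left out, and 13 members were lower without EIC 66. Tap1, which pumps peptides to class I molecules, was at 5.97, 6.75, 17.6, 6.86 and 9.48 CPM in EIC mice and at 5.87, 3.80, 5.55, 2.59 and 4.08 CPM in treated mice, and no values overlapped (LFC −1.09, edgeR adjusted p = 0.512). Psmb9, an immunoproteasome subunit, had LFC −1.10. In MHC class II presentation 2 of 10 were lower, with a median LFC of −0.51, and none had p under 0.05 without EIC 67 or without EIC + S120 80.

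Macrophage and monocyte genes followed EIC 67 as well. Of 24 tested 13 were lower at an unadjusted p under 0.05 and 22 had an LFC below 0, with a median of −0.84, and without EIC 67 these became 5 genes and −0.42. Lyz2, lysozyme of myeloid cells, was at 12.1, 15.4, 68.5, 22.3 and 34.0 CPM in EIC mice and at 13.6, 9.53, 9.97, 6.71 and 8.63 CPM in treated mice. EIC 65 lay below EIC + S120 77, the highest treated mouse, and the other EIC mice lay above it (LFC −1.65, SE 0.438, edgeR adjusted p = 0.523). Cd68 ranged from 1.97 to 6.25 CPM in EIC mice and from 0.991 to 1.99 CPM in treated mice (LFC −1.02), and Adgre1, the F4/80 antigen, had LFC −0.80. Csf1r, the receptor that macrophages need to survive, differed less, with 38.6 to 82.6 CPM and 52.1 to 71.8 CPM (LFC −0.17, SE 0.202).

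Complement C1q, which binds IgG in immune complexes and is made in kidney chiefly by macrophages, had all 3 chains lower at an unadjusted p under 0.05. C1qb was at 8.04, 10.6, 23.6, 11.6 and 15.9 CPM in EIC mice and at 7.46, 7.77, 8.60, 5.48 and 6.41 CPM in treated mice (LFC −0.96, SE 0.249, edgeR adjusted p = 0.486, DESeq2 adjusted p = 0.0462). Only EIC 65 fell within the treated range. C1qa and C1qc had LFCs of −0.85 and −0.80, and without EIC 67 the median of the 3 chains was −0.56. Complement genes other than C1q did not share this direction, with 1 of 18 higher, 0 lower and a median LFC of 0.11.

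In leukocyte integrins and actin regulators, which let leukocytes adhere and crawl, 10 of 19 members were lower at an unadjusted p under 0.05 (median LFC −0.74), and 4 were without EIC 67 (−0.36). Itgb2, the shared beta chain of leukocyte integrins, was at 3.23, 4.65, 10.7, 3.75 and 3.99 CPM in EIC mice and at 2.29, 3.16, 2.87, 1.48 and 1.28 CPM in treated mice. No values overlapped (LFC −1.24, SE 0.332, edgeR adjusted p = 0.496). Map4k1, a kinase of blood cells, was also lower in every treated mouse (0.299 to 0.369 CPM against 0.570 to 1.45 CPM). Ncf4, of the phagocyte oxidase, had LFC −1.41, the lowest of 7 NADPH oxidase genes tested. Of these 2 were lower and 0 higher at an unadjusted p under 0.05, and 2 had an LFC above 0 (median −0.51). Without EIC 67 or without EIC 69 the count of lower genes was 0. Among Fc receptor genes 2 of 8 were lower by the same threshold, Tyrobp and Fcgr1 (LFC −1.09 for Fcgr1). The shared signalling chain Fcer1g had LFC −0.73 and did not reach that threshold. Fcgr4 was removed by the count filter and not tested. Without EIC 67 none of the 8 had an unadjusted p under 0.05, and the LFC of Fcer1g was −0.45.

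A list of 15 genes that the study itself chose on these mice for this pair of groups is not independent evidence of their direction. Of its 14 tested members 13 had an unadjusted p under 0.05, all lower, 4 did not overlap between groups and none was DE, with a median LFC of −1.38. Without EIC 67 these values were 6 members and −0.94. Clec4a1 and Clec4a2, lectins of myeloid cells, had LFCs of −1.50 and −1.26 at levels near 1 CPM. The summed level of the macrophage list, to which abundant genes add most, was 205, 211 and 211 CPM in EIC 66, EIC 65 and EIC 68. These lay within the 182 to 221 CPM of treated mice, and EIC 67 and EIC 69 had 372 and 278 CPM. By the mean log2 CPM of the members only EIC 65 (1.47) lay within the treated mice (0.928 to 1.48). EIC 66 (1.69), EIC 68 (1.72), EIC 69 (2.05) and EIC 67 (2.89) lay above them. Adgre1, Csf1r and Cd68 were above 0 in every mouse, and the part of cell number in these differences was not tested.

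**Figure D4:**
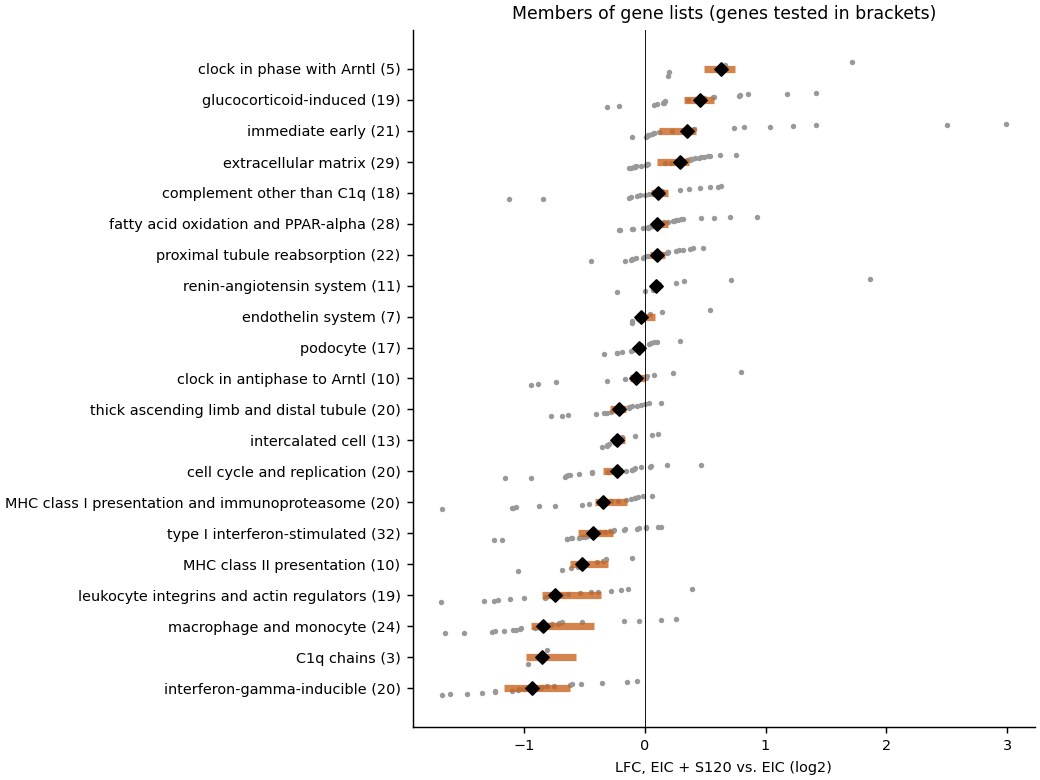
LFCs of EIC + S120 against EIC (x axis, log2) for the tested members of 21 lists, with a grey point per gene, a black diamond at the list's median, and an orange bar spanning the medians of the 10 fits that each left out 1 mouse. The interferon-γ-inducible median is −0.93 with a bar from −1.16 to −0.62, the right end being the fit without EIC 67, and the clock genes in phase with Arntl lie at 0.63.

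Proliferation genes had more lower than higher members, with none DE. Of 20 cell cycle and replication genes 7 had an unadjusted p under 0.05, all lower, among them Ccnd1, and the median LFC was −0.23. Mcm6, a subunit of the replicative helicase, was at 26.8, 22.4, 26.5, 22.5 and 23.2 CPM in EIC mice and at 15.7, 11.9, 13.7, 21.4 and 20.7 CPM in treated mice (LFC −0.54, SE 0.15, edgeR adjusted p = 0.47). The groups did not overlap, though mice 80 and 81 came near the EIC range. Top2a, expressed in dividing cells, was near or below 1 CPM apart from 2.06 CPM in EIC 67 (LFC −0.94). Without EIC 67, 6 of the list's genes remained at an unadjusted p under 0.05 by count, with a median of −0.19.

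Along the nephron, 17 of 20 tested genes of the thick ascending limb and distal tubule and 11 of 13 of intercalated cells had an LFC below 0, and none was DE. In the thick ascending limb and distal tubule 5 members had an unadjusted p under 0.05, all lower (median LFC −0.21), and none had without EIC 65. Slc12a3, the thiazide-sensitive sodium chloride cotransporter, was at 334, 322, 143, 177 and 217 CPM in EIC mice and at 96.7, 166, 156, 169 and 180 CPM in treated mice. EIC 65 and EIC 66 were set well above the rest, and EIC 67 fell below 4 of the treated mice (LFC −0.64, SE 0.264, edgeR adjusted p = 0.65). Calb1, the calcium-binding protein of the same segment, had LFC −0.78 with the same overlap of the groups. In the intercalated cell list 6 of 13 genes were lower by the same threshold (median −0.23), with Foxi1, their master transcription factor, at −0.35, and the count was 2 without EIC 66 or without EIC + S120 79.

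Principal cells of the collecting duct had 2 lower genes of 14 by that threshold, Aqp3 and Scnn1a, and 1 higher, Sgk1, and 5 were lower without EIC + S120 77. Aqp3 was at 168, 156, 188, 156 and 150 CPM in EIC mice and at 135, 110, 126, 137 and 107 CPM in treated mice (LFC −0.41, edgeR adjusted p = 0.241). Scnn1a, the alpha subunit of the epithelial sodium channel, ranged from 112 to 143 CPM in EIC mice and from 95.1 to 111 CPM in treated mice (LFC −0.27), also without overlap. In proximal tubule reabsorption 4 of 22 members were higher and 1 lower, and 7 were higher without EIC 66 or without EIC + S120 77. The lower one, Slc2a5, a fructose transporter, was at 122, 126, 134, 149 and 118 CPM in EIC mice and at 89.2, 89.7, 96.9, 107 and 94.5 CPM in treated mice (LFC −0.44, SE 0.075, edgeR adjusted p = 0.0671). Cubn, the endocytic receptor cubilin, and Miox, which breaks down inositol, had LFCs of 0.32 and 0.38.

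Podocyte genes showed none of 17 past an unadjusted p under 0.05 (median LFC −0.05), and mesangial and mural genes none of 18 (0.04). Leaving out single mice gave 0 to 4 lower and 0 to 1 higher podocyte genes, the 4 without EIC 65. For mesangial and mural genes it gave 0 to 1 lower and 0 to 2 higher, the 2 without EIC 68. Extracellular matrix had 2 of 29 higher and none lower, with a median LFC of 0.29 that was 0.10 without EIC + S120 77, and 5 were higher without EIC 67. Adamts2, which trims procollagen, ranged from 1.36 to 4.07 CPM in EIC mice and from 4.37 to 5.58 CPM in treated mice (LFC 0.79, edgeR adjusted p = 0.496). Id1, a target of BMP signalling, ranged from 45.0 to 72.1 CPM in EIC mice and stood at or above 81.9 CPM in every treated mouse (LFC 0.63, edgeR adjusted p = 0.346, DESeq2 adjusted p = 0.00823). Ndrg1, a stress-regulated gene, was at 1599 to 2721 CPM in EIC mice and 2231 to 4824 CPM in treated mice (LFC 0.85, DESeq2 adjusted p = 0.00359). The cholesterol and lipid synthesis list had 1 higher and 1 lower of 27, and 5 were higher without EIC 66.

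Tlr12, a toll-like receptor gene, was at 0.578, 0.170, 0.613, 0.404 and 0.725 CPM in EIC mice and at 0.235, 9.88, 13.6, 10.2 and 9.27 CPM in treated mice, so that 4 treated mice lay above every EIC mouse and EIC + S120 77 lay within their range. The LFC was 4.08 (SE 0.955, edgeR adjusted p = 0.285, DESeq2 adjusted p = 0.000247), and without EIC + S120 77 the edgeR adjusted p was 2.35e-06. In EIC + S60 mice 71 to 75, scaled with the EIC + S120 libraries, it was at 13.0, 0.456, 9.76, 10.6 and 0.138 CPM, and Control mice reached 22.2 CPM, so both levels were also seen outside the higher dose. Havcr1, the kidney injury molecule KIM-1, was at 31.6 CPM in EIC + S120 78 and between 0.851 and 1.64 CPM in the other 9 mice. That single mouse gave the LFC of 2.71 (edgeR adjusted p = 0.655), and 1 EIC + S60 mouse reached 64.5 CPM.

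The dose difference was tested directly between EIC + S120 and EIC + S60, with the same EIC + S120 libraries as above, so its calls and those against EIC are not independent. Of 13475 genes 7 were DE by edgeR's quasi-likelihood test, 6 higher at the higher dose (0.0445%) and 1 lower (0.00742%), whereas DESeq2 called 143. Ren1 was not among them, with an LFC of 0.06 (SE 0.226, edgeR adjusted p = 0.963) on 793, 508, 817, 432 and 739 CPM in EIC + S60 mice and 588, 848, 741, 454 and 803 CPM in EIC + S120 mice. Renin levels therefore overlapped across the doses, and the SE leaves room for a difference of either sign. Map3k5, in contrast, was at 45.3 to 54.9 CPM in EIC + S60 mice and at 64.6 to 86.9 CPM in EIC + S120 mice (LFC 0.55, SE 0.0775, adjusted p = 0.0392 in edgeR's test).

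Cry1 (LFC 1.13, from 6.52 to 12.1 CPM up to 17.2 to 23.4 CPM), Id2 (0.45), Gldc (0.74) and Zbtb16 (2.52) were also higher at the higher dose. Zbtb16, a glucocorticoid-induced zinc-finger gene, was at 1.48, 1.88, 1.42, 2.42 and 2.70 CPM in EIC + S60 mice and at 14.9, 6.33, 8.92, 19.8 and 8.18 CPM in EIC + S120 mice (adjusted p = 0.0435 in edgeR's test). In EIC mice, however, it spread from 1.59 to 11.04 CPM and overlapped with EIC + S120 (LFC 0.86 against EIC, edgeR adjusted p = 0.762). Id2, an inhibitor of DNA binding, and Gldc, the glycine cleavage enzyme, had LFCs of 0.40 and 0.70 against EIC, which did not pass. Gjb2 was lower at the higher dose, at 94.3 to 128 CPM against 159 to 179 CPM (LFC −0.64, edgeR adjusted p = 0.0125). These calls moved with single libraries: leaving out 1 mouse gave 0 to 52 higher and 0 to 23 lower genes, the largest counts without EIC + S120 77.

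**Figure D5:**
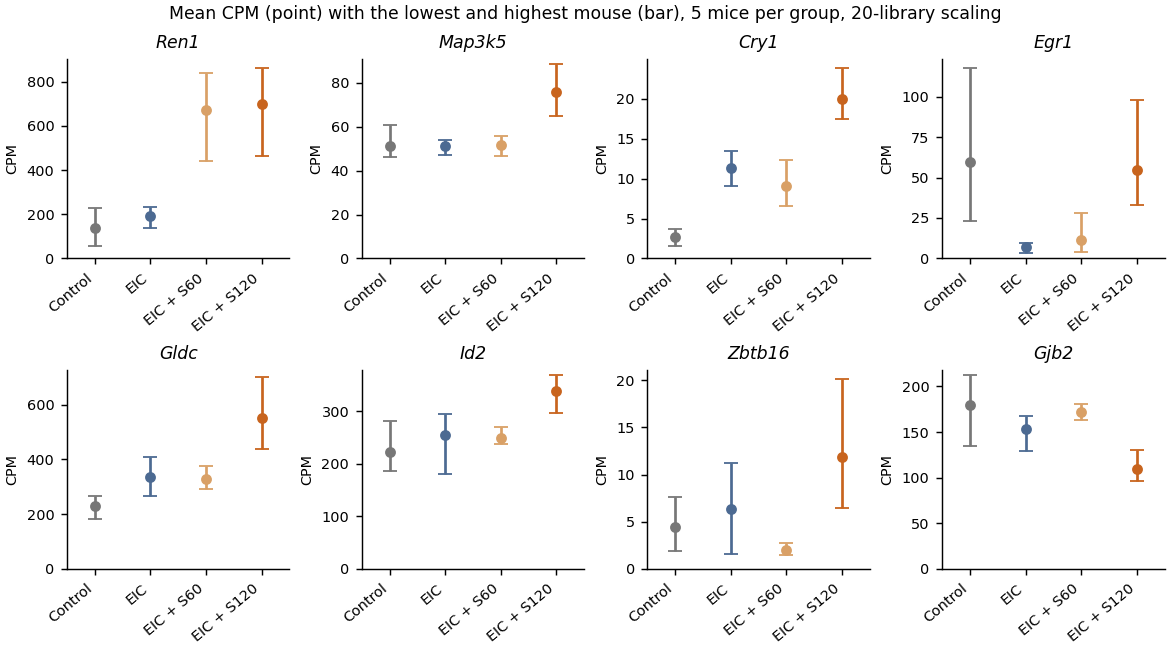
Mean CPM (point, y axis from 0) and the range of 5 mice (bar) for 8 genes by group, from Control at the left to EIC + S120 at the right, scaled over all 20 libraries. Ren1 is at 671 and 698 CPM under the 2 doses, Map3k5 is between 51.3 and 51.8 CPM except for 75.9 CPM under EIC + S120, and Cry1 is lowest in Control.

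Set beside Control, on CPM scaled over all 20 libraries, the levels ordered differently from gene to gene. Mean Ren1 was 137 ± 66.0 (SD, n = 5) in Control, 191 ± 38.3 in EIC, 671 ± 181 at the lower dose and 698 ± 166 CPM at the higher one, so that every mouse given sparsentan lay above every mouse without it, while the ranges overlapped within each of these pairs of groups. Cry1 was 2.69 ± 0.751 CPM in Control, 11.4 ± 1.68 in EIC, 9.12 ± 2.43 at the lower dose and 19.96 ± 2.76 at the higher one. Egr1, by contrast, was 59.4 ± 36.0 CPM in Control, 6.77 ± 2.63 in EIC, 11.6 ± 9.56 in EIC + S60 and 54.5 ± 26.1 in EIC + S120, which placed the higher dose near Control. Lyz2 averaged 8.33 CPM in Control, 31.0 in EIC, 14.4 in EIC + S60 and 9.87 in EIC + S120, and C1qb averaged 5.07, 14.2, 7.59 and 7.28 CPM in the same order. In Dbp (160, 256, 262 and 160 CPM) the EIC + S120 mean also lay nearer to Control than to EIC. Arntl averaged 2.86, 0.665, 0.907 and 2.21 CPM, and without EIC + S120 78 the last of these was 1.32 CPM, nearer to EIC. These levels are given without a test.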

How the data were processed

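Kidney mRNA of 20 mice was sequenced, 5 per group, and the 10 EIC and EIC + S120 libraries were compared. The authors deposited raw counts per gene, made per the labels and methods from poly(A)-selected reads with Trimmomatic 0.36, STAR 2.5.2b on GRCm38 and featureCounts of Subread 1.5.2. For the annotation and the strand setting, not given in the sources used here, no choice was assumed, and reads of overlapping and antisense genes cannot be told apart. Gene names followed the GENCODE or RefSeq annotation of GRCm38 for 15711 of 15780 rows, and rows with date-like names were not named.

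A minimum of 10 counts in 5 or more of the compared libraries was required. Counts were scaled by TMM and tested with edgeR 4.0.16 (R 4.3.3, robust quasi-likelihood, two-sided), adjusted by Benjamini-Hochberg over every gene kept, at a threshold of 0.05. The SE of an LFC came from limma 3.58.1 (trend, log2 CPM, prior count 2). The test was checked on simulated data for 13485 genes, in which 33 of 50 genes changed by an LFC of 0.5 and 45 of 50 changed by 1 were called. Of all 185 calls 10 were false. Changed genes were drawn only from those of higher mean count, and no simulated mouse stood apart over many genes. The shares called therefore do not carry over to genes of low count or to groups with an outlying mouse. With 15915600 to 19635500 counts in a library, genes near 1 CPM rest on few reads, and CPM is not divided by transcript length.

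Gene lists, named genes (every DE gene, the 30 smallest p values, genes the study names, up to 6 members per list or all of a list of 15 or fewer, and 3 nearest by correlation) and members were chosen with earlier results of these data known. P-values set the difference between groups against the spread between mice. The labels give no batch, cage or harvest time. Alternatives were RLE and upper-quartile scaling, no filter, filterByExpr, DESeq2 1.42.0, limma-voom, no robust setting, all 20 libraries and leaving out each mouse. List medians without the library that moved each list most were read from the last of these. Some genes that met these rules are not reported here.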

Additional observations from a re-analysis of the deposited data

Results flagged for a closer look

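Single mice stood apart from the other 4 of their group by Dixon's ratio (above 0.71 for 5 mice) in 15 of 196 group values tested. The usual rate of about 1 in 20 holds for independent, normally distributed values. These CPM of chosen genes share the same mice, so the 15 cannot be set against that rate. EIC 67 accounted for 8 of the 15. It was the high value of the EIC group for Tgtp1 (15.001 CPM), Psmb9 (14.7), Clec4a2 (1.95), Adgre1 (11.6), Cd68 (6.25), Itgb2 (10.7) and Top2a (2.06), and the low one for Map3k5 (46.2 CPM). EIC + S120 77 was the high treated value for Ifi35 (7.17 CPM) and the low one for Pck1 (5572) and Slc12a3 (96.7). EIC + S120 78 was the high value for Arntl (5.67 CPM) and Havcr1 (31.6), and EIC + S120 79 was the high value for Tgtp2 (5.85) and the low one for Map4k1 (0.299).

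Levels differed between EIC + S120 and EIC + S60 mice, by edgeR's quasi-likelihood test, in Cry1 (LFC 1.13), Gldc (0.74), Id2 (0.45), Map3k5 (0.55), Zbtb16 (2.52) and Gjb2 (−0.64). No gene was DE when EIC + S60 71, 72 or 75 was left out. The part of dose, as against hour of harvest or handling, was not tested for these 6 genes. Among them, Map3k5 alone was also DE against EIC.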

How the results depend on the processing

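Against EIC, the counts of 2 higher and 0 lower DE genes became 29 and 21 in DESeq2, 4 and 1 in limma-voom, and 5 and 3 with all 20 libraries in the fit, and 1 gene (Eddm3b) was lower under upper-quartile scaling, without the filter and without the robust setting. Leaving out 1 mouse gave 0 to 15 higher and 0 to 13 lower genes, the highest without EIC + S120 77, and no higher gene without EIC 67 or EIC + S120 81. Against EIC + S60, the 6 higher and 1 lower became 87 and 56 in DESeq2, the lower count was 3 under RLE scaling, 2 under upper-quartile scaling, 2 without the filter and 4 with all 20 libraries, and leaving out 1 mouse gave 0 to 52 and 0 to 23. The cause of these differences was not tested. Of 98 genes named with values against EIC, 94 kept the sign of their LFC under every alternative that gave them a value, which was 18 for all but 3 of the 98 (12 for Ncf4, 13 for Clec4a1 and Map4k1, which the count filter removed from the others). The others changed sign near 0 when 1 mouse was left out: Ace (−0.012 to 0.28), Ednrb (−0.19 to 0.039), Edn1 (−0.23 to 0.089) and Cry2 (−0.018 to 0.043, and −0.010 under upper-quartile scaling). Ren1 kept its call under all 8 other scalings, filters, tools and sample sets, as did Map3k5. No paired analysis was possible because the mouse numbers differ between the groups. Depth limits what can be read from genes near 1 CPM, such as Arntl in EIC mice, Nlrc5 and Clec4a1.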

Other observations

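Metabolic and transport genes not described above differed little. Of 28 genes of fatty acid oxidation 4 were higher and 1 lower at an unadjusted p under 0.05, with a median LFC of 0.10, among them Acot1, an acyl-CoA thioesterase (LFC 0.47), Slc25a20, the mitochondrial carnitine carrier (0.26), and Fabp3, a fatty acid binding protein (−0.21). In conjugation and antioxidant genes 5 of 30 were higher and 3 lower, with Ugt1a6a, a glucuronosyltransferase, at 0.49, Sult1d1, a sulfotransferase, at 0.42 and Gpx6, a glutathione peroxidase, at −0.58. None of these passed edgeR's adjustment, and none of 18 drug and organic ion transporters had an unadjusted p under 0.05.

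Amino acid transporters had 3 of 22 members lower and none higher at that threshold, against 3.74% lower over all genes. Leaving out single mice gave 1 to 5 lower, and 2 were higher without EIC 66. Slc6a19, the neutral amino acid transporter of the brush border, had LFC −0.36. All 7 red blood cell genes had an LFC below 0 (median −0.48), with 1, the alpha-globin gene Hba-a2 (LFC −0.78), at an unadjusted p under 0.05, and their summed level ran from 619 to 1299 CPM in EIC mice and from 382 to 920 CPM in EIC + S120 mice. Of 13 mitochondrially encoded genes 12 had an LFC below 0 (median −0.07), none with an unadjusted p under 0.05.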
